A study of Mus musculus with 60 samples.

Results

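The Egr and Nr4a genes are 2 small families of transcription factors that neurons switch on within minutes of activity. Their 7 members, *Egr1*, *Egr2*, *Egr3*, *Egr4*, *Nr4a1*, *Nr4a2* and *Nr4a3*, were taken by name from the 46480 genes of the RNA-Seq count tables, and all 7 were among the 17040 genes tested. The RNA came from the dorsal and ventral dentate gyrus (DG) of male C57/Bl/6 mice that were weaned on postnatal day 22 and kept for 8 weeks in standard housing (SH, 3 mice per cage) or in an enriched environment (EE, 12 mice per cage). The EE cages were larger and held running wheels, a bridge and objects that were changed weekly, so that company, space, running and novelty cannot be told apart. The mice carried no transgene or allele that the labels name, and were killed from these cages on day 80, in the late morning. Each sample pooled the DG punches of several mice, and the study links dorsal and ventral samples of the same mice. The labels do not say which these are, and samples of both regions with the same housing and number were taken here to be 1 pool. The comparisons used 18 samples of 9 pools, with 4 SH and 5 EE samples in each region.

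Coordinates of the genes are those of Gencode on the mouse build GRCm38, also called mm10. *Egr1* lies on chromosome 18. *Egr2* spans chr10:67535475-67542188, *Egr3* chr14:70077203-70082614 and *Egr4* chr6:85511121-85513589. *Nr4a1* spans chr15:101254269-101274795, *Nr4a2* chr2:57106830-57124003 and *Nr4a3* chr4:48045153-48086447. *Egr4* and *Nr4a2* are on the minus strand and the others on the plus strand.

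The Egr proteins are zinc finger factors that bind GC-rich sites, and their transcription is driven by serum response factor and its Elk partners, downstream of MAP kinase signalling, and by CREB. The Nr4a proteins are orphan nuclear receptors that bind DNA alone or, for some of them, with the retinoid X receptors. Their transcription is driven mainly by CREB after cAMP or calcium signals. In the hippocampus both families are known as immediate early genes, whose mRNA rises briefly in neurons that were recently active. *Egr1* and *Egr3* are needed for long-lasting synaptic plasticity and memory, *Egr2* is best known for myelination and hindbrain patterning, and the 3 Nr4a genes take part in the consolidation of memory.

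Upstream sequences are shown because CREB is a known regulator of both families. The 250 bases before the transcription start were taken from RefSeq (GRCm38.p6) and searched on both strands for TGACG, the core of the cAMP response element, and its reverse complement CGTCA. A window was found for 5 of the 7 genes. *Egr2* has 5 listed starts, and the window of the transcript with the lowest RefSeq number was used. The *Nr4a1* and *Egr2* windows lie inside the Gencode spans given above, which begin farther upstream. *Nr4a1*, *Nr4a2* and *Nr4a3* had 4 matches each, while *Egr4* and *Egr2* had 2 each. Among the 32851 windows of the same length, 17.8% held at least 1 match, 3.90% at least 2 and 0.137% at least 4. The full element TGACGTCA was in none of the 5 windows and in 1.55% of all. The *Nr4a3* stretch shown stops where Gencode begins the first exon, so that it holds 3 of the 4 matches. Capitals mark the matches in the first 4 sequences, each read 5′ to 3′ on the strand of the gene.
Nr4a1, chr15:101266596-101266845, plus strand: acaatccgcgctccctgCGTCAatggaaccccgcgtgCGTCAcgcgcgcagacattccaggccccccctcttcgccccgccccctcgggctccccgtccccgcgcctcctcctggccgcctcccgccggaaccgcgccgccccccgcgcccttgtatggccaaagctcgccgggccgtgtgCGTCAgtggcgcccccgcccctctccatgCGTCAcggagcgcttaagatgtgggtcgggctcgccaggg
Nr4a2, chr2:57124004-57124253, minus strand: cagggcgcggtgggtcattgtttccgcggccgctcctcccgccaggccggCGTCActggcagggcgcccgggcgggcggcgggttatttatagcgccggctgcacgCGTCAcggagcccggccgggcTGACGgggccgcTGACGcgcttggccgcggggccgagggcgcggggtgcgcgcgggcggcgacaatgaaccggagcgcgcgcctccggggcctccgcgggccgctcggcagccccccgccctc
Nr4a3, chr4:48045055-48045152, plus strand: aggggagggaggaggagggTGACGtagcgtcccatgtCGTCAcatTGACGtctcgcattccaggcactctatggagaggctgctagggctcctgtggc
Egr4, chr6:85513590-85513839, minus strand: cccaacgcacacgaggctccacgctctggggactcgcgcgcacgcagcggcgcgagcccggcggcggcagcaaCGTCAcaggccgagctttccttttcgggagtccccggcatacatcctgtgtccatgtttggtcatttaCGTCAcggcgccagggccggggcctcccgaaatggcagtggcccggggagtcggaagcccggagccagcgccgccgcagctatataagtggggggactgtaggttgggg
Egr2, chr10:67537787-67537816, plus strand: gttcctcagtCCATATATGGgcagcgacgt
In the *Egr2* sequence the capitals mark a CArG box, the site of serum response factor, which lay 72 to 63 bases before the start. A CArG box (CC, 6 bases of A or T, GG) was in 1.47% of the windows and, of the 5 genes, in *Egr2* alone. *Nr4a1* also held 1 copy of GCGGGGGCG, a binding site of the Egr proteins, as CGCCCCCGC 60 to 52 bases before its start, and 2.57% of the windows held this site. The other Egr form GCGTGGGCG (0.536% of windows) and the Nr4a site AAAGGTCA (1.34%) were in none of the 5. These matches describe the letters of the windows and not binding in these mice.

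Sequencing gave 22919364 to 28301861 fragments counted on genes per sample (median 25816352). Of all fragments, 32.6% to 40.9% were not counted on a gene of the strand used. SH replicate 3 was left out in both regions. The study excluded an SH sample for *Xist*, a transcript of female cells, and the dorsal sample of this pool had 789 *Xist* counts and the ventral 308, against 0 to 16 in the other 18 samples. All 8 markers of dentate granule cells were detected in each region. The labels do not say how the mice were assigned to pools, so p-values measure the spread between these pools.

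Levels are given in a pair of units. CPM values are counts scaled to a common library size by the TMM method, and compare samples for 1 gene. TPM values are also divided by transcript length, and compare genes within a sample. On the TPM scale *Egr3* had the highest level of the 7 genes in all 9 dorsal samples, with means of 8.59 ± 1.96 TPM (SD, n = 4) and 8.34 ± 1.55 TPM (n = 5) in SH and EE, respectively. *Nr4a3* was highest in all 9 ventral samples, at 6.65 ± 1.17 TPM (n = 4) and 6.25 ± 1.68 TPM (n = 5), respectively. *Egr2* was lowest in each of the 18 samples, between 0.05 and 0.49 TPM, which came from 10 to 70 counts. The other 6 genes had 121 to 2363 counts per sample and a TPM over 1 in at least 3 samples.

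**Figure D1:**
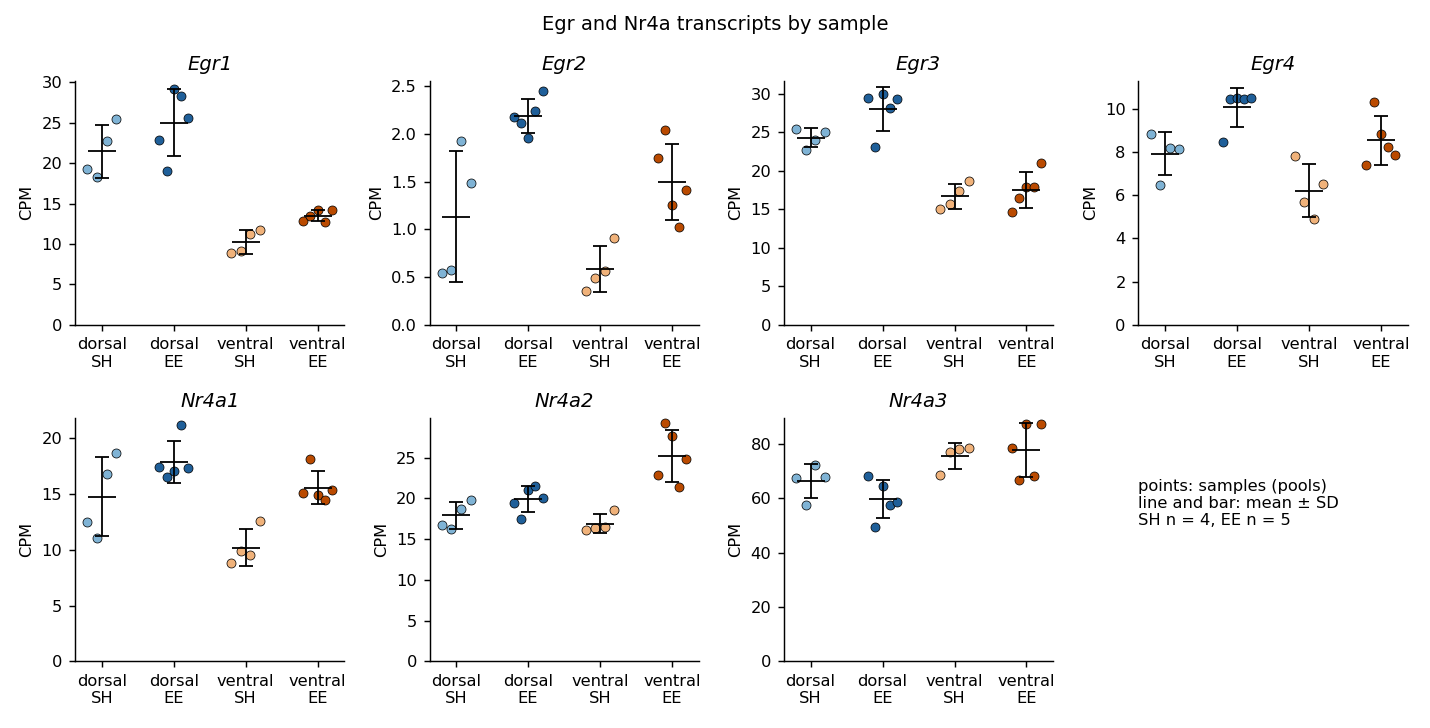
Level of each Egr and Nr4a gene in CPM (linear axis from 0) in the dorsal and ventral DG of SH and EE mice. Points are samples, lines and bars the mean ± SD; all 5 ventral EE samples lie above the 4 ventral SH samples for *Egr1*, *Egr2*, *Nr4a1* and *Nr4a2*, whereas the *Nr4a3* groups overlap.

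The effect of EE was tested within each region, which asks whether activity-regulated genes differ after weeks of enriched housing. In ventral DG 2 of the 7 genes, *Nr4a2* and *Nr4a1*, were higher in EE, by 1.49 and 1.52 times. In dorsal DG none of the 7 passed. A gene was called when edgeR's quasi-likelihood test gave an adjusted p (FDR, Benjamini-Hochberg over the 17040 genes) under 0.05 and the fold change was at least 20%. By this rule 0.241% of all genes tested were called in ventral DG and 0.634% in dorsal DG. Higher in EE were 0.182% and 0.387% of genes, respectively. At an unadjusted p under 0.05, 5 of the 7 genes passed in ventral DG (7.58% of all genes) and 4 in dorsal DG (8.81%), all of them higher in EE. Among all genes 4.27% and 4.60% passed that limit and were higher in EE.

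*Nr4a2*, also named Nurr1 and needed for dopamine neurons and for memory, had 16.1, 16.4, 16.5 and 18.6 CPM in the 4 ventral SH samples. In the 5 ventral EE samples it had 22.9, 29.2, 27.6, 21.3 and 24.9 CPM. All 5 EE samples were above the highest SH sample, a pattern that 1.28% of all genes showed in this direction. The log2 fold change was 0.57 (SE 0.0853, 95% CI 0.40 to 0.75) with an adjusted p of 0.00171 by edgeR's quasi-likelihood test. Leaving out any 1 of the 9 pools kept the call, with an adjusted p of at most 0.0186.

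*Nr4a1*, also named Nur77 and induced by many signals in neurons and other cells, had 8.83, 9.84, 9.52 and 12.5 CPM in ventral SH. In ventral EE it had 15.1, 18.1, 14.9, 14.4 and 15.3 CPM. The lowest EE sample was above the highest SH sample. The log2 fold change was 0.61 (SE 0.128, 95% CI 0.34 to 0.87) with an adjusted p of 0.0431 by edgeR's quasi-likelihood test. This call was near the threshold. The adjusted p from edgeR rose to 0.0722 without SH replicate 2, 0.170 without SH replicate 1 and 0.215 without SH replicate 4, and to 0.113, 0.101, 0.106 and 0.0999 without EE replicates 1, 2, 3 and 5. The log2 fold change stayed between 0.54 and 0.72 whichever pool was left out.

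*Nr4a3*, also named Nor1, did not follow its relatives. It had 68.5, 77.1, 78.2 and 78.6 CPM in ventral SH and 78.8, 66.9, 87.6, 68.2 and 87.5 CPM in ventral EE. The EE samples lay on both sides of the SH samples. The log2 fold change was 0.04 (95% CI -0.14 to 0.23, adjusted p = 0.943 in edgeR), an interval whose upper end lies below the log2 limit of 0.26 for a call.

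The Nr4a genes made up different shares of the family. In ventral DG *Nr4a3* made up 61.0% ± 1.59 (SD, n = 4) of the summed TPM of the 3 genes in SH and 51.7% ± 4.30 (n = 5) in EE. Its highest share in an EE sample was 54.7% and its lowest in an SH sample 58.8%. In dorsal DG it made up 52.7% ± 2.94 in SH and 46.3% ± 3.52 in EE, and these groups overlapped. *Nr4a1* made up 17.8% ± 1.44 in ventral SH and 22.5% ± 2.49 in ventral EE, and the highest SH sample (19.9%) was just above the lowest EE sample (19.8%). *Nr4a2* made up 21.2% ± 0.701 in ventral SH and 25.8% ± 2.18 in ventral EE, without overlap. These shares are a description and were not tested.

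**Figure D2:**
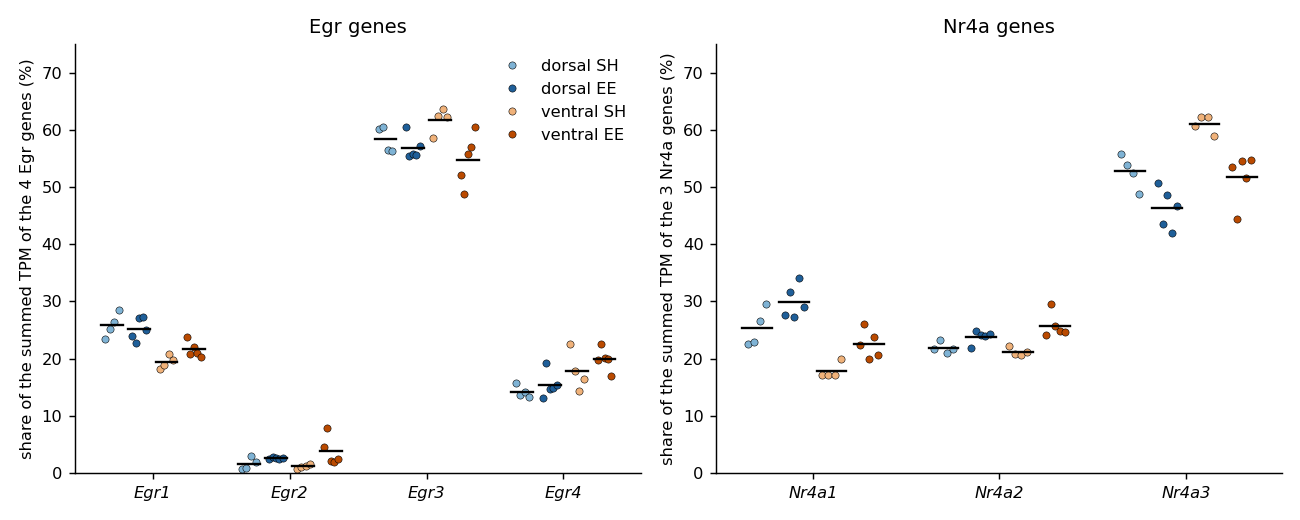
Share (percent, linear axis from 0) of the summed TPM of the 4 Egr genes (left) and of the 3 Nr4a genes (right) held by each gene, with 1 point per sample and a line at the group mean. *Egr3* held 54.8% to 61.7% of the Egr total on average, and the *Nr4a3* share was lower in EE than in SH in both regions.

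*Egr2* had the largest log2 fold changes of the 7 genes for EE, but from few counts. In ventral SH it had 0.353, 0.488, 0.567 and 0.913 CPM, and in ventral EE 1.75, 2.04, 1.25, 1.02 and 1.41 CPM. All 5 EE samples were above the SH samples. The log2 fold change of 1.35 (SE 0.328, 95% CI 0.67 to 2.03) had an adjusted p of 0.107 in edgeR and was not called. DESeq2 called it, with a log2 fold change of 1.36 and an adjusted p of 0.00690, as it did *Nr4a1* and *Nr4a2*.

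In dorsal SH *Egr2* split into low values in replicates 1 and 2 (0.538 and 0.576 CPM) and higher ones in replicates 4 and 5 (1.92 and 1.49 CPM). In dorsal EE it had 2.17, 2.11, 1.95, 2.24 and 2.45 CPM, all above the SH samples, as 2.21% of all genes were. The log2 fold change was 0.97 (SE 0.277, 95% CI 0.39 to 1.54) with an adjusted p of 0.142 in edgeR. Without SH replicate 4 it was 1.33 with an adjusted p of 0.0473 in edgeR, and the gene was then called.

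*Egr1*, also named Zif268 and the most used activity marker of the family, had 8.90, 9.13, 11.2 and 11.8 CPM in ventral SH. In ventral EE it had 12.9, 13.5, 14.2, 12.7 and 14.2 CPM. The groups did not overlap, yet the log2 fold change of 0.40 (95% CI 0.15 to 0.65) was not called, with an adjusted p of 0.276 in edgeR. In dorsal DG it had 18.3 to 25.5 CPM in SH (median 21.0) and 19.0 to 29.1 CPM in EE (median 25.6), and the groups overlapped (log2 fold change 0.22, adjusted p = 0.589 in edgeR).

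*Egr4*, a member found mostly in brain, had a log2 fold change of 0.45 (95% CI 0.20 to 0.70, adjusted p = 0.182) in ventral and of 0.34 (95% CI 0.10 to 0.58, adjusted p = 0.275) in dorsal DG in edgeR. In each region 4 of 5 EE samples were above the highest SH sample. In both regions the EE sample that was not above it was replicate 1, at 8.47 CPM in the dorsal and 7.42 CPM in the ventral sample. The other 4 dorsal EE samples were all at about 10.5 CPM.

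*Egr3*, which is induced by neuregulin and activity, had the smallest ventral EE effect of the 4 Egr genes. Its log2 fold change was 0.08 (95% CI -0.11 to 0.27, adjusted p = 0.882 in edgeR). It had 15.01 to 18.6 CPM in ventral SH (median 16.5) and 14.6 to 21.0 CPM in ventral EE (median 17.9). In dorsal DG 4 of 5 EE samples were above the highest SH sample, and the log2 fold change was 0.21 (95% CI 0.03 to 0.39, adjusted p = 0.454 in edgeR).

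The 3 Nr4a genes were not called in dorsal DG. *Nr4a1* had 11.1 to 18.7 CPM in dorsal SH (median 14.6) and 16.5 to 21.2 CPM in dorsal EE (median 17.3), with a log2 fold change of 0.28 (adjusted p = 0.503 in edgeR). *Nr4a2* had 16.2 to 19.8 and 17.5 to 21.5 CPM (log2 fold change 0.15, adjusted p = 0.662). *Nr4a3* had 57.6 to 72.3 CPM in SH and 49.6 to 68.3 CPM in EE, and was the only gene of the 7 with a mean below that of SH (log2 fold change -0.15, adjusted p = 0.684). Over the 7 genes the median log2 fold change was 0.22 in dorsal and 0.45 in ventral DG, and that of all genes tested was 0.00 in both.

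**Figure D3:**
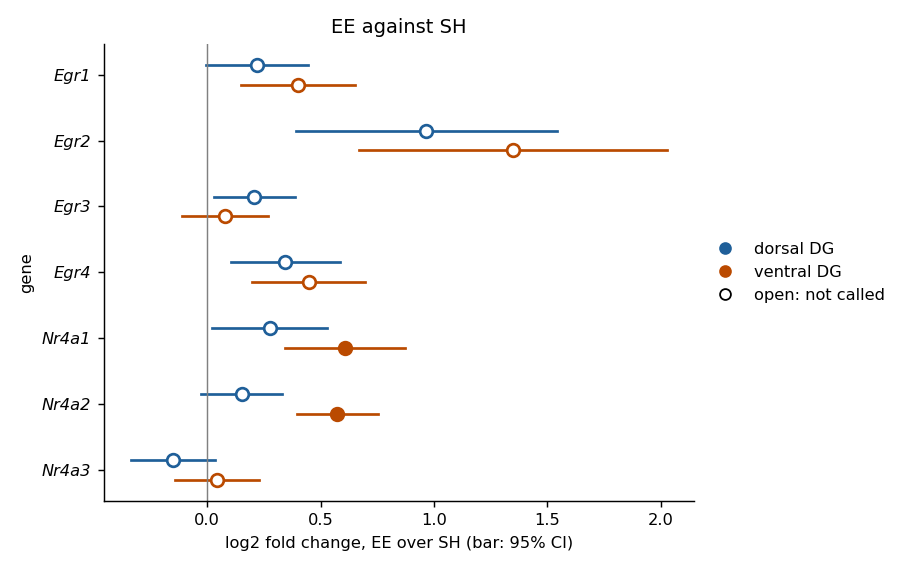
Log2 fold change of EE over SH for each gene in dorsal and ventral DG, with its 95% CI; filled points were called and open points were not. *Nr4a1* and *Nr4a2* in ventral DG are the only filled points, and *Egr2* lies farthest to the right with the widest intervals.

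Marker genes of other cells were compared between the ventral groups, and none of those given here was called for EE. Of 6 markers listed for subiculum and entorhinal cortex, *Ctgf* had no matching symbol. The summed level of the other 5 was 39.6 to 46.4 CPM in ventral SH and 47.9 to 72.1 CPM in ventral EE, which did not overlap. Of these 5 markers 3 had a log2 fold change above 0, and *Nxph4* (-0.20) and *Cplx3* (-0.14), named after their values were seen, were below 0. All 6 markers of CA1 pyramidal cells had a log2 fold change above 0 (median 0.25, 2 at an unadjusted p under 0.05 in edgeR), and summed to 180 to 223 CPM in ventral SH and 172 to 269 CPM in ventral EE. The 6 choroid plexus markers summed to 389 to 1105 CPM in ventral SH and 401 to 1420 CPM in ventral EE. The 8 granule cell markers summed to 793 to 914 CPM in ventral SH and 627 to 940 CPM in ventral EE. Of these 8 markers 1 had a log2 fold change above 0 in ventral DG (median -0.17), and 3 had an unadjusted p under 0.05 in edgeR (7.58% of all genes). Above 0 in dorsal DG were 3 of the 8 (median -0.11), and 3 had an unadjusted p under 0.05 in edgeR (8.81% of all genes). In dorsal DG the sums of these 4 lists overlapped between SH and EE. Of 6 endothelial and pericyte markers 5 were above 0 for EE in ventral DG (median 0.09), and 3 had an unadjusted p under 0.05 in edgeR. No list held a matched marker at 0 in every sample analysed. The part of these cells in the EE results was not tested, and in bulk tissue more RNA per cell and more cells of a type cannot be told apart.

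Whether EE acted differently in dorsal and ventral DG was then tested directly, as the interaction of region and housing. No member passed, and all 7 had an adjusted p of 0.9999 in edgeR; 1 of the 17040 genes (0.00587%) was called. At an unadjusted p under 0.05, *Nr4a2* alone of the 7 passed in this fit, which had no block for the pools (3.25% of all genes, 553 genes). Its EE effect was smaller in dorsal than in ventral DG by a log2 fold change of -0.42 (95% CI -0.67 to -0.17), with an unadjusted p of 0.00206 from edgeR. For *Nr4a1* the difference was -0.33 (95% CI -0.70 to 0.04). With the pools as blocks, *Nr4a1* (-0.32, unadjusted p = 0.0223) and *Nr4a3* (-0.19, unadjusted p = 0.0341) also passed the unadjusted limit in edgeR. The adjusted p of *Nr4a2* in that fit was 0.910, and no member was called. These data thus gave a call for *Nr4a1* and *Nr4a2* in ventral DG and not in dorsal DG, without a called difference between the regions.

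Region was compared next, which asks how the genes differ along the long axis of the DG. All 4 Egr genes and *Nr4a1* were higher in dorsal DG, *Nr4a3* was higher in ventral DG, and *Nr4a2* differed by less than the 20% limit. In the joint test of both housings 6 of 7 members were called, 5 higher and 1 lower in dorsal DG. Of all genes tested 30.9% were called, 15% higher (2551 genes) and 15.9% lower in dorsal DG. Log2 fold changes are dorsal over ventral and the mean of both housings.

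*Egr1* had the largest difference between regions, 0.98 on the log2 scale (SE 0.0814, 95% CI 0.81 to 1.15, adjusted p = 4.6e-09 in edgeR), or 1.97 times. In dorsal DG it had 19.3, 18.3, 22.8 and 25.5 CPM in SH and 22.9, 19.0, 29.1, 28.3 and 25.6 CPM in EE, all above the highest ventral sample at 14.2 CPM. *Egr3* also had no overlap between regions, with 22.7 to 30.0 CPM over the 9 dorsal samples and 14.6 to 21.0 CPM over the 9 ventral samples. Its log2 fold change was 0.61 (SE 0.0627, adjusted p = 9.63e-08 in edgeR). Both genes, and *Egr2* and *Egr4*, were higher in the dorsal sample of all 9 pools, as were 20% of all genes tested (3416 genes).

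*Egr2* was higher in dorsal DG by 0.75 on the log2 scale (SE 0.218, adjusted p = 0.0183 in edgeR) and *Egr4* by 0.29 (SE 0.0836, adjusted p = 0.0163 in edgeR). Both calls were lost with 1 pool. Without SH replicate 4 the adjusted p in edgeR was 0.0607 for *Egr2* and 0.0542 for *Egr4*, with log2 fold changes of 0.57 and 0.24.

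*Nr4a1* was higher in dorsal DG in 8 of 9 pools (log2 fold change 0.37, SE 0.0885, adjusted p = 0.00316 in edgeR). *Nr4a3* was higher in ventral DG in all 9 pools, as were 20.4% of all genes tested. Its log2 fold change was -0.28 (SE 0.0632, adjusted p = 0.000925 in edgeR), close to the limit for a call. It fell short of the limit without EE replicate 5 (-0.25, adjusted p = 0.00838) and without SH replicate 2 (-0.25, adjusted p = 0.00176). *Nr4a2* was higher in dorsal DG in 4 of 9 pools, with a log2 fold change of -0.13 and an adjusted p of 0.00288 in edgeR for the joint test.

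**Figure D4:**
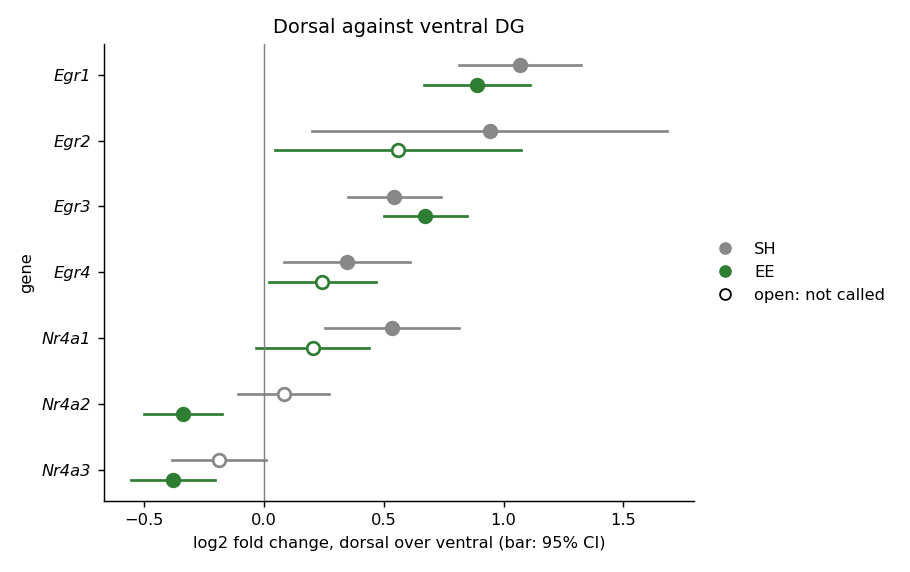
Log2 fold change of dorsal over ventral DG for each gene in SH and in EE, with its 95% CI; filled points were called. *Egr1* and *Egr3* are filled on the dorsal side in both housings, *Nr4a2* and *Nr4a3* are filled on the ventral side in EE.

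Within SH 5 of the 7 genes were called, all higher in dorsal DG (28.3% of all genes called, 14.1% higher in dorsal DG). They were *Egr1* (log2 fold change 1.07), *Egr2* (0.94), *Egr3* (0.54), *Nr4a1* (0.53) and *Egr4* (0.35). The *Egr1* and *Egr3* groups did not overlap in SH, and those of the other 5 genes did (19.5% of all genes were higher in dorsal DG without overlap). *Egr2* and *Egr4* again depended on single pools. Their adjusted p in edgeR was 0.265 and 0.194 without SH replicate 4, and 0.0537 and 0.0838 without SH replicate 5, and that of *Egr2* was 0.0508 without EE replicate 1. *Nr4a2* had a log2 fold change of 0.08 (95% CI -0.11 to 0.27) and *Nr4a3* of -0.19 (95% CI -0.38 to 0.01) in SH.

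Within EE 4 of the 7 were called, 2 in each direction (29.8% of all genes called, 14.1% higher and 15.8% lower in dorsal DG). *Egr1* (0.89) and *Egr3* (0.67) were higher in dorsal DG, and *Nr4a2* (-0.34, SE 0.0791, adjusted p = 0.00129) and *Nr4a3* (-0.38, SE 0.0845, adjusted p = 0.000817 in edgeR) were higher in ventral DG. Only *Egr1* and *Egr3* had groups that did not overlap (14.5% of all genes in that direction). *Nr4a2* fell below the fold limit without EE replicate 2 (-0.25, adjusted p = 0.0123). *Egr2* (0.56), *Egr4* (0.24) and *Nr4a1* (0.20) were not called, with adjusted p values of 0.0691, 0.0699 and 0.155 in edgeR. With the pools as blocks, *Egr2* was called in EE (0.56, adjusted p = 0.0106 in edgeR). It also passed without EE replicate 2 (0.69, adjusted p = 0.0444), without SH replicate 1 (0.56, adjusted p = 0.0391) and without SH replicate 4 (0.56, adjusted p = 0.0493), and *Egr4* passed without EE replicate 2 (0.30, adjusted p = 0.0405). The SH pools entered these fits through the shared estimate of the spread.

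The order of the 4 groups differed between the genes. *Egr1* ran from dorsal EE (25.0 ± 4.16 CPM, SD, n = 5) through dorsal SH (21.5 ± 3.27, n = 4) and ventral EE (13.5 ± 0.695, n = 5) to ventral SH (10.2 ± 1.44, n = 4), and only the dorsal pair overlapped. *Egr3* had the same order, with overlap within each region. *Egr2*, *Egr4* and *Nr4a1* ran from dorsal EE through ventral EE and dorsal SH to ventral SH, with neighbours that overlapped. *Nr4a2* was highest in ventral EE (25.2 ± 3.25 CPM) and lowest in ventral SH (16.9 ± 1.15 CPM). *Nr4a3* was highest in ventral EE (77.8 ± 10.0 CPM) and lowest in dorsal EE (59.8 ± 7.11 CPM), again with overlap between neighbours.

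Cell markers differed strongly between the regions. The 8 granule cell markers summed to 1384 to 1608 CPM in the dorsal and 627 to 940 CPM in the ventral samples, and 7 of 8 were called higher in dorsal DG. The 6 choroid plexus markers summed to 22.1 to 207 CPM in the dorsal and 389 to 1420 CPM in the ventral samples, and all 6 were called lower in dorsal DG. Of the mossy cell markers 3 of 5 tested, and of the inhibitory neuron markers 3 of 6, were called lower in dorsal DG, against 15.9% of all genes tested. The part of cell composition in the region results was not tested.

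Other genes of the same pathways were counted from lists that were chosen with earlier results of these data known. The paper reports *Junb*, *Arc*, *Fos*, *Fosb*, *Npas4*, *Gadd45b* and *Penk* as higher in EE in these mice. Calls of these genes are therefore no independent support, and *Gadd45b* was called in neither region here. Of 17 other rapid response genes, which respond to activity without new protein synthesis, 5 were called higher in EE in dorsal and 6 in ventral DG, and none lower. *Npas4*, a neuron-specific factor, had log2 fold changes of 1.27 (adjusted p = 1.82e-06) in dorsal and 1.65 (adjusted p = 3.01e-06) in ventral DG in edgeR. *Fos* had 0.76 and 1.26, *Fosb* 0.67 and 1.05, and *Arc*, whose protein acts at synapses, 0.41 and 0.53. *Junb* (0.33 and 0.38) and, in ventral DG, the phosphatase gene *Dusp1* (0.52) completed the called genes and were named after their values were seen. The median log2 fold change of the 17 genes was 0.30 in dorsal and 0.40 in ventral DG. In dorsal DG the *Arc* call held without EE replicate 2 or SH replicate 4 and was lost without any other pool (adjusted p up to 0.197), and *Fosb* was lost without SH replicate 1 (0.0640). In ventral DG *Arc* was lost without SH replicate 2 (adjusted p = 0.0559 in edgeR). *Junb* was lost without EE replicates 2 or 4 or SH replicates 2, 4 or 5 in both regions and without EE replicate 5 in dorsal DG (adjusted p up to 0.130 in dorsal and 0.198 in ventral DG).

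Among 14 late response genes, which follow the early factors, *Nptx2* (0.63 in dorsal and 0.90 in ventral DG), coding for a synaptic pentraxin, and *Penk* (1.35 and 1.03), coding for enkephalins, were called higher in EE in both regions. *Sorcs3* (0.41) was called in dorsal DG, and was named after its values were seen. It was lost without EE replicates 3 or 4 or SH replicates 2 or 4 (adjusted p up to 0.0990 in edgeR). Of 12 reported Egr targets *Arc* was the only gene called for EE, and of 8 reported Nr4a targets *Fosl2* (0.38 and 0.43), itself an activity-induced AP-1 factor. None of 9 partners and corepressors, 15 upstream transcription factors and 18 upstream kinases was called for EE in either region, and at an unadjusted p under 0.05 they held 1, 0 and 3 genes in dorsal (8.81% of all genes) and 2, 0 and 2 in ventral DG (7.58% of all genes) by edgeR.

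**Figure D5:**
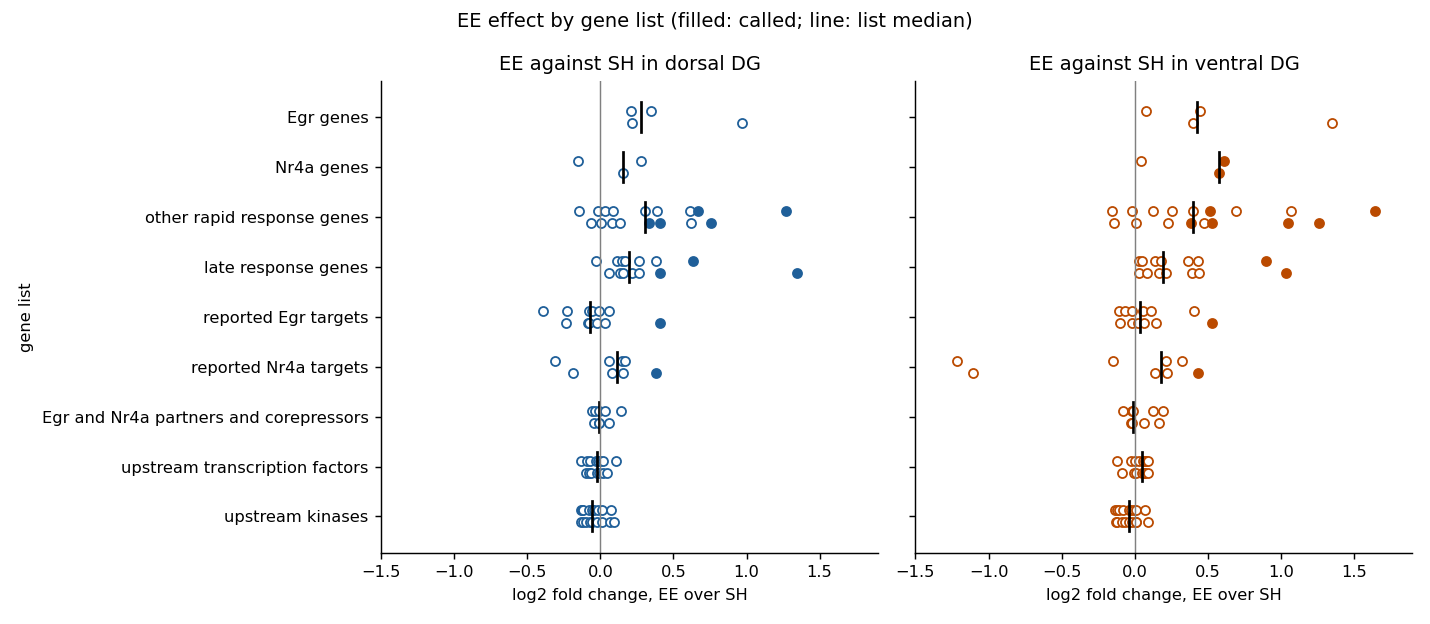
Log2 fold change of EE over SH for the Egr and Nr4a genes and for lists of related genes, in dorsal (left) and ventral DG (right), with 1 point per gene, filled where called, and a line at the median of the list. The rapid response genes hold 5 filled points in dorsal and 6 in ventral DG, and the partners, upstream factors and kinases hold none.

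The same lists were counted by region, where 15% of all genes tested were called higher and 15.9% lower in dorsal DG. *Rxrg*, a nuclear receptor that pairs with some Nr4a proteins, was lower in dorsal DG by a log2 fold change of -2.02 (adjusted p = 1.35e-11 in edgeR), and *Rxra* by -0.64. Of 15 upstream transcription factors 8 were called higher in dorsal DG and none lower, among them *Mef2c* (0.78) and *Mef2d* (0.51), which are activated by calcium. Of 18 upstream kinases 3 were called higher, with *Camk2b* at 0.54, and 1 lower, which is no more than among all genes (30.9% in either direction).
Of 17 other rapid response genes 7 were called higher in dorsal DG and 1 lower, with *Atf3* at 1.60, *Npas4* at 1.11, *Fos* at 0.65, *Arc* at 0.53, *Btg2* at 0.51 and *Fosb* at 0.36. Of 14 late response genes 8 were higher and 1 lower, with *Acan* at 1.71, *Inhba* at 1.53, *Nptx2* at 1.23, *Penk* at 1.01, *Bdnf* at 0.70 and *Pcsk1* at -0.73. Of 12 reported Egr targets 3 were higher and 2 lower, *Arc* and *Ngfr* (-0.70) among them, which is near the 30.9% of all genes. Of 8 reported Nr4a targets 2 were higher, *Slc18a2* (0.87) and *Bdnf*, and 3 lower, *Vip* (-0.91), *Slc6a3* (-1.40) and *Th* (-2.24). The *Th* call was lost without EE replicate 3 or 5 and with all 20 samples, and that of *Slc6a3* without SH replicate 2. *Th* was near 0, with means of 0.070 and 0.055 CPM in dorsal SH and EE. In ventral SH and EE its means were 0.468 (SD 0.743) and 0.195 CPM. *Slc6a3* varied widely in ventral SH (1.99 CPM, SD 2.30). Within EE *Th* (adjusted p = 0.192) and *Slc6a3* (adjusted p = 0.226) were not called in edgeR.

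Pools of 1 housing also differed among themselves. In SH replicates 1 and 2 *Egr1*, *Egr2*, *Egr3*, *Nr4a1*, *Nr4a2* and *Nr4a3* lay below their group means, averaged over both regions on the log2 CPM scale, and in SH replicates 4 and 5 above them. *Egr2* deviated most, by -0.66 and -0.42 in replicates 1 and 2 and by 0.48 and 0.61 in replicates 4 and 5. For *Nr4a1* these deviations were -0.20, -0.21, 0.07 and 0.34. *Egr4* deviated differently, by 0.26, -0.19, -0.13 and 0.07.

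The deviations of 2 members from their group means were correlated over the 9 pools for all 21 pairs. Pearson's r was above 0 in 18 pairs, between -0.39 and 0.85 with a median of 0.34. For *Egr1* and *Egr3* r was 0.82 (exact permutation within housing, two-sided, p = 0.00417) and Spearman's rho 0.85 (exact permutation p = 0.00521), and r was 0.69 without the 2 pools farthest from the *Egr1* median. Their Benjamini-Hochberg adjusted exact permutation p values over the 21 pairs were 0.0875 for r and 0.109 for rho, and no pair passed.

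Genes with the most similar pattern were found by Pearson's r of log2 CPM over the 18 samples after each group mean was subtracted, among 12195 other genes with a TPM over 1 in at least 3 samples. For the mean of the 7 genes these were *Per2* (r = 0.80), *Gpr176* (0.79), *Dusp6* (0.78), *Matn2* (0.77), *Npas1* (0.77), *P2rx7* (0.75), *Lhx6* (0.74) and *Ubn1* (0.74). *Per2*, a gene of the circadian clock, kept the first place on the log2 TPM scale and with all 20 samples. For *Nr4a3* the closest were *Lnpep* (0.96), *Nyap2* (0.94) and *Pcnx* (0.93). For *Egr1* they were *Otud4* (0.87), *Nr3c2* (0.85) and *Phip* (0.85), and for *Egr3* *Med23* (0.90), *Ppp1r10* (0.90) and *Zmym2* (0.90).
For *Nr4a1* the closest were *P2rx7* (0.80), *Amd2* (0.74) and *Fos* (0.72), and *Fos* kept its place as the third on both other settings. For *Nr4a2* they were *Gm34583* (0.87), *Kcnh7* (0.85) and *Matn2* (0.77), for *Egr2* *Dusp5* (0.75), *Ccdc130* (0.75) and *Pknox1* (0.74), and for *Egr4* *Atf1* (0.76), *Jdp2* (0.75) and *Comtd1* (0.71). The samples share pools and library composition, the list was taken from the top of many genes, and most of its other ranks moved with the scale, so these values are a description with no test.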

How the data were processed

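RNA-Seq of dorsal and ventral DG was analysed in 18 of 20 samples, grouped by the labels; MethylC-seq and TAB-seq samples were not analysed here. Per the labels and the submitters' processing notes, the authors trimmed reads with Trim Galore 0.4.0, aligned them to mm10 with STAR 2.5.1b and ran RSEM 1.2.30. The authors deposited a count of fragments per gene without normalization, of which the reverse-strand column was used. They deposited an expected count and a TPM per gene, the latter adjusted for transcript length and for the total of the sample. FPKM values were not used. The 4 summary rows that name no gene (32.6% to 40.9% of fragments) were kept out of library sizes and tests. Gene symbols and coordinates came from Gencode (GRCm38), and 45968 of 46480 genes had a symbol.

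A gene entered the test if 2 or more samples had over 10 counts, by edgeR 4.0.16 (TMM, quasi-likelihood) in R 4.3.3, with 4 groups in one model and Benjamini-Hochberg adjustment over 17040 genes. A region result tested both housings jointly. CPM, SE and 95% CI came from this fit. Each result was recomputed with limma 3.58.1 on log2(TPM + 1), DESeq2 1.42.0, rounded expected counts and other filters, scalings and samples, as the closing section gives. The procedure was tested on simulated data. Samples of a group were never identical (40 pairs, chi-square divided by its degrees of freedom at least 2.95).

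The study links dorsal and ventral samples of the same mice without numbers, and samples of the same housing and number were taken to be these. Their deviations from the group means had a mean r of 0.0827 over 9 pairs (-0.0840 to 0.189), across genes, so that the data do not show the pairing. SH and EE samples share a number only.

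The members and the gene lists were chosen with earlier results of these data known. Named were the 7 members, list genes called for EE or with a called region log2 fold change of at least 0.5 (at most 6 per list), and the genes most similar in pattern. Tables were handled with pandas 2.3.3 and numpy 2.4.6, figures with matplotlib 3.10.9, and scipy 1.17.1 was run in python 3.11.15.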

Additional observations from a re-analysis of the deposited data

Results flagged for a closer look

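Of 28 sets of member values (7 genes in 4 groups of 4 or 5 samples), 6 held a sample far from the others by Dixon's test at the 95% level, which chance gives in about 1 of 20 sets. *Egr3* in dorsal EE replicate 2 was at 23.2 CPM with the nearest of the other 4 at 28.2 CPM. *Egr4* in dorsal EE replicate 1 was at 8.47 CPM with the nearest at 10.5 CPM. *Nr4a1* was high in dorsal EE replicate 4, at 21.2 against 17.4 CPM, and in ventral EE replicate 2, at 18.1 against 15.3 CPM. *Nr4a2* was high in ventral SH replicate 5, at 18.6 against 16.5 CPM, and *Nr4a3* low in ventral SH replicate 1, at 68.5 against 77.1 CPM.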

How the results depend on the processing

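The count of members called moved most in ventral DG for EE. Against 2 called members, 3 were called with DESeq2 (*Egr2* added), 4 with no filter on low counts, with edgeR's likelihood ratio test and with the replicate block, 1 with only genes of TPM over 1 and with rounded expected counts, and 0 with limma on log2(TPM + 1). In dorsal DG 0 became 1 (*Egr2*) with all 20 samples and with no filter on low counts. With limma on log2(TPM + 1) the region counts fell from 6 to 4 in the joint test, from 5 to 3 in SH and from 4 to 2 in EE. The joint calls lost were those of *Egr2* (0.13, adjusted p = 0.229 in limma) and *Nr4a3* (-0.07, adjusted p = 0.751 in limma). Fits that each left out 1 pool gave 0 to 1 for EE in dorsal DG, 1 to 2 in ventral DG, and 4 to 6 for region, 3 to 5 in SH and 4 to 5 in EE.

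Some log2 fold changes that were not called changed sign. With limma on log2(TPM + 1) *Egr1* (-0.0292), *Egr3* (-0.0295) and *Nr4a2* (-0.0696) did so for EE in dorsal DG, *Egr3* (-0.0670) and *Nr4a3* (-0.10) for EE in ventral DG, *Nr4a2* (0.0462) for region and *Nr4a3* (0.0467) for region in SH. On that scale the median log2 fold change of all genes for EE was -0.17 in dorsal and -0.10 in ventral DG, against 0.00 in both in the main fit. No EE call of a named list gene passed on it. The 10 genes with the most TPM held 66.1% to 78.2% of the TPM of a sample. *Nr4a2* in SH was -0.0288 by region with all 20 samples. *Nr4a3* for EE in ventral DG was -0.0022 with the replicate block and -0.0034 to 0.0935 with 1 pool left out, below 0 without EE replicate 3, EE replicate 5 or SH replicate 1. The difference of the EE effects of *Egr4* was -0.170 to 0.0107 with 1 pool left out, above 0 without SH replicate 4. The cause was not tested.

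The replicate block for EE used the number that SH and EE samples share. Their deviations correlated at 0.0815 to 0.175 over 8 pairs, over 0.1 in 7, and 9 of 16 samples were closest to their own number. With it *Egr1* (0.36) and *Egr2* (1.41) were also called for EE in ventral DG, with an adjusted p of 0.0433 each in edgeR, and 172 instead of 108 genes were called in dorsal and 87 instead of 41 in ventral DG. The pool block changed no call by region other than that of *Egr2* in EE. *Egr2* had 10 to 70 counts per sample, the fewest of the members.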
